A study of Mus musculus with 12 samples.

Results

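The genes described here encode the protein-folding machinery of mouse spinal cord: small heat shock proteins, the HSP70, HSP110 and HSP90 families, the mitochondrial HSP60 and HSP10 pair, the J proteins, the cytosolic chaperonin TRiC and the BAG proteins. They were chosen by gene name among the protein-coding genes of the deposited count table, which gave 87 of 40912 genes. The name rule uses no expression values, but the choice was made with earlier results of these data known. By role these were 8 small heat shock proteins, 8 cytosolic HSP70 genes, 5 genes for HSP70 and HSP60 proteins of the endoplasmic reticulum (ER) and mitochondria, 3 HSP110 genes and 3 HSP90 genes. The remainder were 4 class A, 13 class B and 28 class C J proteins, 9 chaperonin genes and 6 BAG genes. RNA was read from spinal cord of mice at postnatal day 21 in 4 groups of 3 libraries each. TRAP_Chat was the ribosome pulldown from the line Tg(Chat-EGFP/Rpl10a)DW167Htz, PreIP_Chat the RNA of that line before the pulldown, TRAP_Snap25 the pulldown from Tg(Snap25-EGFP/Rpl10a)JD362Jdd, and PreIP_Snap25 its input. All 4 groups thus came from animals that carry an EGFP-tagged ribosomal protein, L10a. Its expression in the Chat line follows sequences of Chat, the gene for choline acetyltransferase, which is active in motor neurons and in the other cholinergic neurons of the cord. In the Snap25 line it follows those of a synaptic gene active in neurons generally. By its title the series is about motor neurons beside neurons at large. No labels say which libraries came from separate animals, and the p-values therefore speak of the spread among the sequenced libraries alone, which may be technical.

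Chaperones bind proteins that are unfolded or being folded and keep them from clumping. HSP70 proteins do this in cycles of ATP use, in which J proteins bring the client and start ATP hydrolysis, and HSP110 and BAG proteins release ADP. HSP90 takes over kinases, receptors and other partly folded clients, TRiC encloses actin and tubulin, and small heat shock proteins hold unfolded proteins without ATP. Motor neurons have very long axons and large amounts of cytoskeleton, and in humans mutations of HSPB1, HSPB8 and DNAJB2 cause inherited motor neuropathies. Heat shock factors bind inverted repeats of the letters GAA in the promoters of many of these genes.

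The libraries held between 10149346 and 20521699 counts, and values are given as CPM, the usual scaling of counts to library size, here with library sizes adjusted by the trimmed mean of M-values. At these depths 3 counts equalled between 0.156 and 0.305 CPM, which covers counting error only. The 7 cholinergic markers, Chat among them, summed to 2141 to 3593 CPM in TRAP_Chat, 372 to 387 CPM in PreIP_Chat, 358 to 646 CPM in TRAP_Snap25 and 154 to 249 CPM in PreIP_Snap25, and all 7 were higher in TRAP_Chat than in PreIP_Chat and than in TRAP_Snap25. Of these sums 1 gene, Slc18a3, held a large part, with means of 1374, 184, 110 and 50.7 CPM in the same order of groups. The 8 oligodendrocyte markers summed to 2141 to 5809 CPM in TRAP_Chat, 17010.4 to 22344 CPM in PreIP_Chat, 1691 to 5179 CPM in TRAP_Snap25 and 15948 to 20797 CPM in PreIP_Snap25. All 8 of these, all 8 astrocyte markers and all 7 microglial markers were lower in each pulldown than in its input. Of 6 general neuronal markers, Snap25 among them, 1 passed as higher in TRAP_Chat and 0 in TRAP_Snap25 against their inputs, and 0 passed as lower. Their median log2 fold changes were 0.51 and 0.43. Syt1 had a lower mean in each pulldown than in its input, and the other neuronal markers had higher means. Ribosomal RNA of the mitochondrial genome took 6.67% of counts in TRAP_Chat replicate 1 and 0.209% to 0.68% in the other pulldowns, against 23.2% to 40.7% in the inputs. In PreIP_Chat replicate 2 the muscle markers Acta1, Ckm and Myh1 summed to 158 CPM, against 0.680 to 31.5 CPM in the other 11 libraries. In whole tissue and in pulldowns alike, more cells of a type and more RNA per cell cannot be told apart.

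As a group, chaperone RNA took a larger part of the pulldowns than of the inputs. The 87 genes summed to 8819 to 9225 CPM in TRAP_Chat, against 6097 to 6433 CPM in PreIP_Chat. In the Snap25 line the sums were 7982 to 8482 CPM in TRAP_Snap25, against 6168 to 7124 CPM in PreIP_Snap25. Pulldown and input did not overlap in either line. Of the 87 genes, 77 had counts high enough to be tested with edgeR's quasi-likelihood test, and 10 did not. In TRAP_Chat against PreIP_Chat 18 of the 77 rose at a Benjamini-Hochberg adjusted p under 0.05, where 12.6% of all 15905 tested genes did, and 2 fell, where 14.3% of all did. In TRAP_Snap25 against PreIP_Snap25 14 rose, where 9.69% of all genes did, and 3 fell, where 12.7% of all did. Counted in either direction the 20 genes called in the Chat line were 26% of those tested, close to the 26.9% of all genes, and the 17 called in the Snap25 line were 22.1%, close to 22.4%. The median log2 fold change was 0.34 over the 77 genes and -0.06 over all genes in the Chat line, and 0.29 over the 77 and -0.0042 over all in the Snap25 line. Libraries did not overlap, with the pulldown higher, for 28 of the 77 genes in the Chat line, where 21.8% of all genes did so, and for 20 in the Snap25 line, where 16.6% did. Among the genes that rose, 9 did so in both lines, which is 50% of the Chat list and 64.3% of the Snap25 list; over all genes the shares were 45.9% and 59.8%. Leaving out any PreIP_Chat library brought the 18 rises of the Chat line to 10, while the 2005 rises over all genes came to between 1191 and 1315. In the Snap25 line the 14 rises came to 6 without TRAP_Snap25 replicate 2, 6 without PreIP_Snap25 replicate 1 and 5 without PreIP_Snap25 replicate 2. Over all genes the 1541 rises came to 950, 739 and 675 in the same order.

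**Figure D1:**
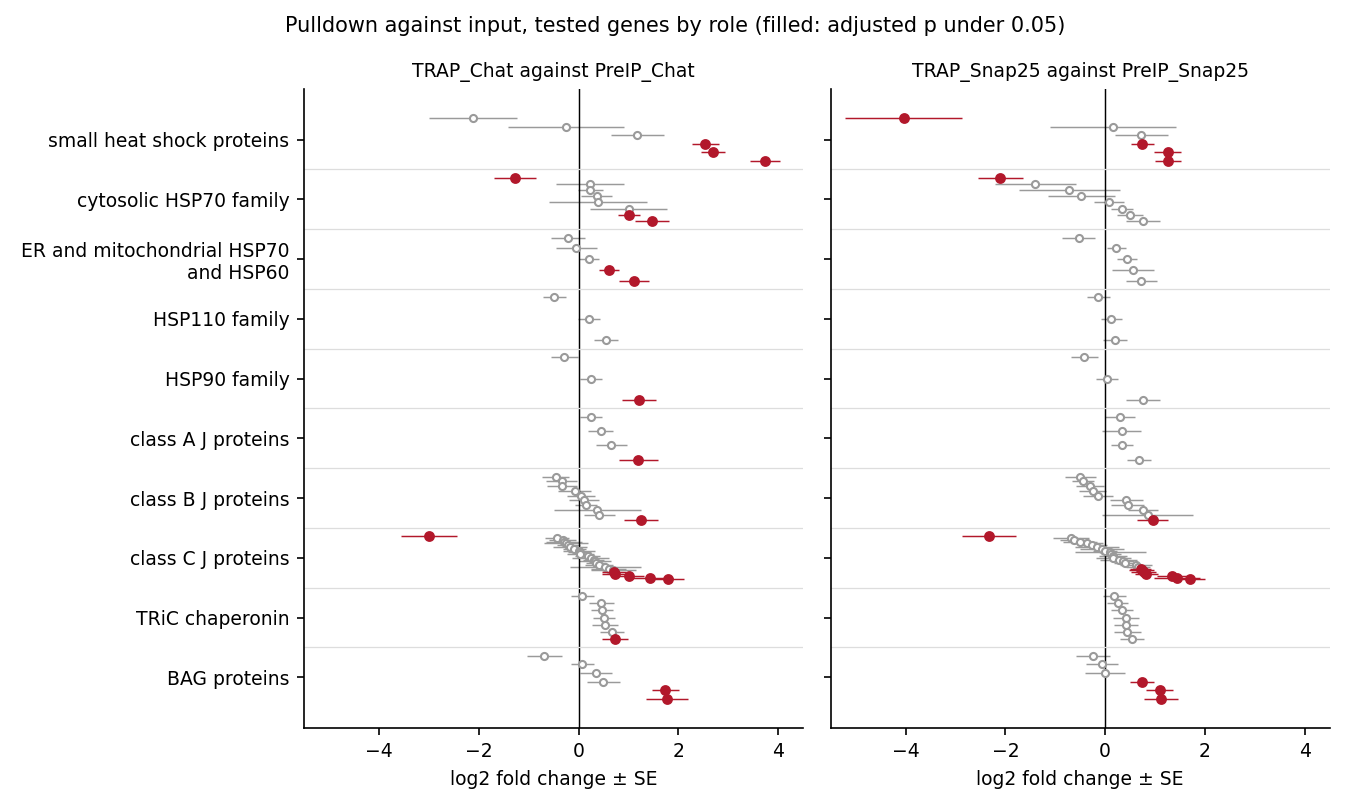
Log2 fold change (x axis, ± SE) of each of the 77 tested chaperone genes in TRAP_Chat against PreIP_Chat (left) and TRAP_Snap25 against PreIP_Snap25 (right), in rows by role. Filled red points passed an edgeR adjusted p of 0.05; the farthest right is Hspb1 at 3.74 in the Chat line, and all 7 tested chaperonin subunits lie right of 0 in both lines.

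Small heat shock proteins gave the largest rises of the Chat line. Hspb1, known as HSP25 or HSP27 and a protector of actin and intermediate filaments, had 96.4, 91.95 and 86.6 CPM in TRAP_Chat, against 7.57, 5.76 and 7.30 CPM in PreIP_Chat. The Snap25 line gave 11.02, 16.3 and 23.3 CPM in TRAP_Snap25, against 6.38, 7.25 and 7.56 CPM in PreIP_Snap25. Every TRAP_Chat library stood above every other library, and the TRAP_Snap25 libraries stood above both inputs. Hspb1 was 13.3-fold higher in TRAP_Chat than in PreIP_Chat (log2 fold change 3.74 ± 0.30, edgeR adjusted p = 1.90e-06) and 2.38-fold higher in TRAP_Snap25 than in PreIP_Snap25 (log2 fold change 1.25 ± 0.28, edgeR adjusted p = 0.00493). A pseudogene, Hsp25-ps1, and other loci share 51.6% of the 50-base stretches of the longest coding transcript of Hspb1 in GENCODE M21, so that some reads could have been counted elsewhere; Hsp25-ps1 itself reached at most 0.833 CPM in any library.

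Hspb8, a small heat shock protein that works with Bag3 in the removal of aggregates, had 429.6, 629.7 and 501 CPM in TRAP_Chat, against 86.6, 84.7 and 69.9 CPM in PreIP_Chat. Its levels in the Snap25 line were 105, 112 and 134 CPM in TRAP_Snap25, against 81.95, 58.9 and 68.3 CPM in PreIP_Snap25. All TRAP_Chat values exceeded all others, while the groups of the Snap25 line lay closer but did not overlap. The rise was 6.47-fold in the Chat line (log2 fold change 2.69 ± 0.24, edgeR adjusted p = 3.41e-06) and 1.68-fold in the Snap25 line (log2 fold change 0.75 ± 0.22, edgeR adjusted p = 0.0251). The Snap25 call was lost without TRAP_Snap25 replicate 2 or 3 or PreIP_Snap25 replicate 2 or 3 (edgeR adjusted p from 0.0522 to 0.116) and with no filter on low counts (0.0534) and with only the groups compared in the fit (0.0671).

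Hspb6, or HSP20, the third of the small proteins that rose, had 508, 458 and 313 CPM in TRAP_Chat, against 75.2, 87.7 and 56.7 CPM in PreIP_Chat. It had 106, 171 and 137 CPM in TRAP_Snap25, against 59.2, 52.5 and 61.5 CPM in PreIP_Snap25. Pulldown and input did not overlap in either line, and TRAP_Chat lay above TRAP_Snap25. The log2 fold change was 2.54 ± 0.26 in the Chat line (edgeR adjusted p = 1.33e-05) and 1.26 ± 0.25 in the Snap25 line (edgeR adjusted p = 0.00291). The longest coding transcripts of Hspb6 and Hspb8 share no 50-base stretch with another annotated gene. Together the 8 small heat shock genes summed to 912 to 1185 CPM in TRAP_Chat, 141 to 199 CPM in PreIP_Chat, 230.4 to 318 CPM in TRAP_Snap25 and 126 to 153 CPM in PreIP_Snap25. These rises went with those of the cholinergic markers given above, whose part in them was not tested. Muscle, which also expresses Hspb1, Hspb6, Hspb8 and Bag3, had its 3 markers summed at 0.680, 31.5 and 3.02 CPM in TRAP_Chat replicates 1 to 3. In the same order Hspb1 stood at 96.4, 91.95 and 86.6 CPM and Hspb6 at 508, 458 and 313 CPM. Hspb8 stood at 429.6, 629.7 and 501 CPM and Bag3 at 192, 393 and 302 CPM. The part of muscle in these levels was not tested.

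**Figure D2:**
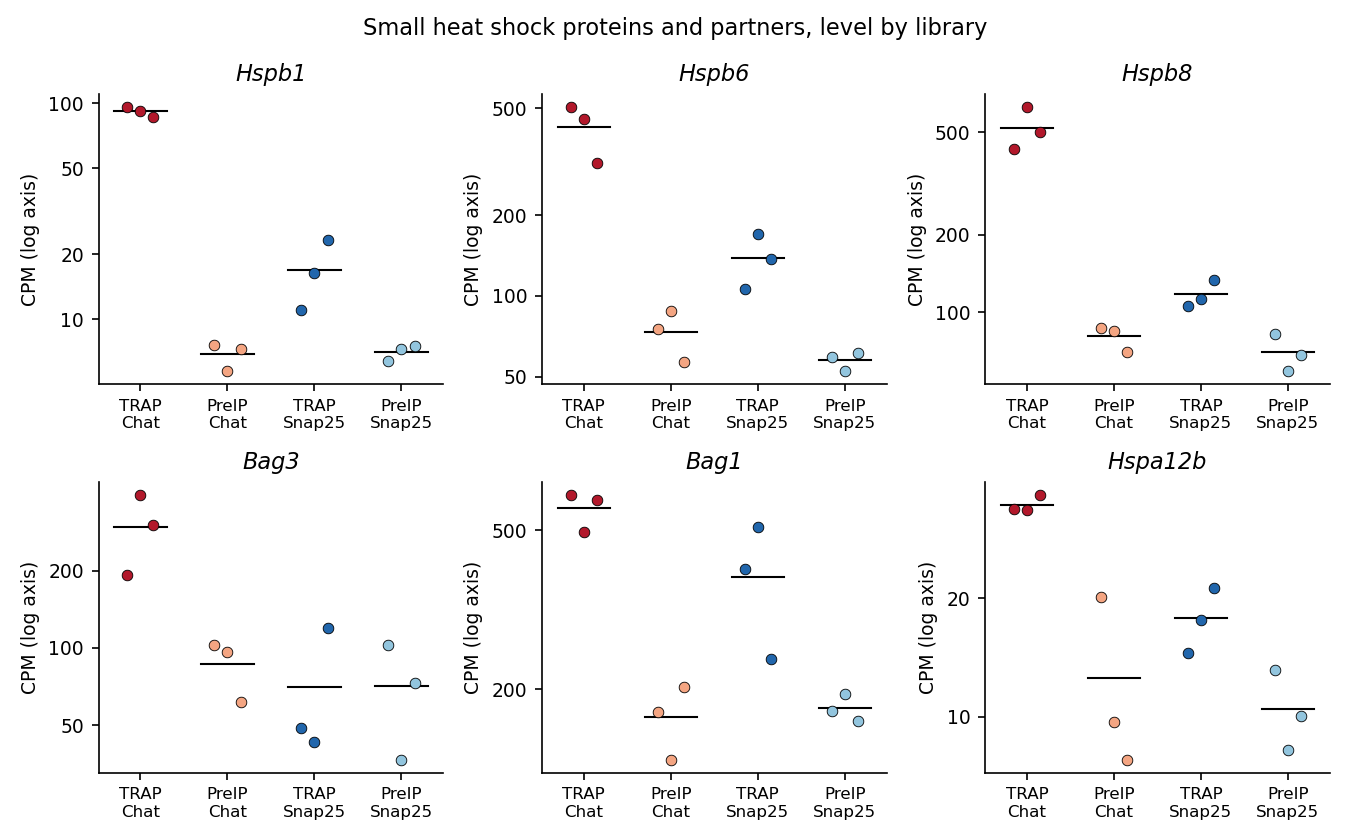
Level in CPM (log axis) of Hspb1, Hspb6, Hspb8, Bag3, Bag1 and Hspa12b in each library; points are libraries and horizontal lines are group means of 3. TRAP_Chat lies above the 3 other groups in all 6 panels except that 1 TRAP_Snap25 library of Bag1, at 511 CPM, exceeds the lowest TRAP_Chat library, at 496 CPM.

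The other tested small heat shock genes did not follow these 3. Hspb11, a subunit of the intraflagellar transport complex of cilia, had 16.4, 4.31 and 9.99 CPM in TRAP_Chat, against 3.97, 4.48 and 5.13 CPM in PreIP_Chat, groups that overlapped (log2 fold change 1.18 ± 0.54, edgeR adjusted p = 0.114). Hspb7, a muscle protein, was at 13.9 CPM in PreIP_Chat replicate 2, the library with high muscle markers, and at 10.6 CPM in TRAP_Chat replicate 1, where these were low. It stayed at or below 2.44 CPM in the other 10 libraries and passed no test. Hspb2, another muscle protein, had counts of 2, 0 and 0 in TRAP_Snap25, against 14, 10 and 21 in PreIP_Snap25. It fell there (edgeR adjusted p = 0.0160), a call lost without TRAP_Snap25 replicate 2 or PreIP_Snap25 replicate 3 (edgeR adjusted p from 0.0509 to 0.0636). Its exons, 0.834 kb in all, overlap those of Cryab on the other strand over 252 bases. Reads in that part cannot be told apart from those of Cryab while the strand setting of the counting is unknown. Cryab, alpha-B crystallin, is itself a small heat shock protein that lies outside the name rule and is known from oligodendrocytes and astrocytes. It had 87.6, 45.2 and 133 CPM in TRAP_Snap25, against 632, 402 and 645 CPM in PreIP_Snap25 and fell (log2 fold change -2.66 ± 0.35, edgeR adjusted p = 1.88e-04). In the Chat line Cryab had 326, 387 and 214 CPM in TRAP_Chat, against 643, 514 and 484 CPM in PreIP_Chat, without passing the test (log2 fold change -0.83 ± 0.33, edgeR adjusted p = 0.0771).

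The promoters of the 3 small heat shock genes and of Bag3 are shown because they hold the heat shock factor letters, a choice made after values and matches were seen. Dnajc15 had a similar fold change to Bag3 in the Chat line, and neither set of letters was found in its window. RefSeq (GRCm38.p6) windows from 250 bases before to 50 after a start were found for 71 of the 87 genes. They were searched for GAANNTTC and TTCNNGAA, each of which reads the same on both strands and which can overlap. Capitals mark the matches in the windows below. Hspb1 (chr5:135887669-135887968, plus strand) holds GAANNTTC at 2 places, Hspb8 (chr5:116422815-116423114, minus strand) and Bag3 (chr7:128523333-128523632, plus strand) at 1 place each, and Hspb6 at 1 place in the window of its second start (chr7:30553051-30553350, plus strand) and none in that of its first. Counted from the start, the first matched base is at -117 and -97 in Hspb1 and at -120 in Hspb6. In Hspb8 and Bag3 the match lies after the start, from bases 3 and 43. The matched letters GAAGTTTC occur in all 4, and also in the window of Cct2, a chaperonin gene that passed in neither pulldown.
Hspb1: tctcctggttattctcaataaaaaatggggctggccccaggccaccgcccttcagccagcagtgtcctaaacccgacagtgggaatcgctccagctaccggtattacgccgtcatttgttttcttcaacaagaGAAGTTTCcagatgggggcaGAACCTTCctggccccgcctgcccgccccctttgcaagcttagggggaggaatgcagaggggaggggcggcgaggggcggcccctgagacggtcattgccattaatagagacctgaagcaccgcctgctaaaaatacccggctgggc
Hspb6: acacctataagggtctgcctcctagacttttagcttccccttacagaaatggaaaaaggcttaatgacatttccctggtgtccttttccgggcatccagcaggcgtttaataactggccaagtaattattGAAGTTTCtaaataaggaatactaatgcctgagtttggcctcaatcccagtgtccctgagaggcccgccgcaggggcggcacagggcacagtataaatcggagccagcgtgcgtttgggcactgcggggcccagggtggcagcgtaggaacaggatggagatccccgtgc
Hspb8: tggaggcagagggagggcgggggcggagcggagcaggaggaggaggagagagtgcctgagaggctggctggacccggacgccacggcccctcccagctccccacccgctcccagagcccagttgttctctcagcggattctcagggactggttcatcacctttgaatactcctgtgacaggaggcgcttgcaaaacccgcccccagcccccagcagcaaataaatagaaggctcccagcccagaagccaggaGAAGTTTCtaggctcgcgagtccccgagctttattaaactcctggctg
Bag3: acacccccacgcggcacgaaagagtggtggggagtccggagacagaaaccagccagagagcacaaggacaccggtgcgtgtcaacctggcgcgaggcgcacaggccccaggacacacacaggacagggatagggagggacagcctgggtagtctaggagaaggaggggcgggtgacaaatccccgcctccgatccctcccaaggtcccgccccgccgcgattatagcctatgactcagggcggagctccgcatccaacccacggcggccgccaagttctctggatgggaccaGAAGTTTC
GAANNTTC was present in 23.9% of the 71 chaperone genes and in 9.04% of all 27025 genes with a window, and TTCNNGAA in 9.86% and 9.6%. Among the other genes with GAANNTTC, Dnaja4, Hspd1 and Hspe1 rose in the Chat line, while Cct2, Dnaja1, Dnajb6, Dnajc27, Hspa1a, Hspa1b and Hsph1 were tested and passed in neither pulldown. A match is a description of letters in these windows, chosen after the values were seen.

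BAG proteins, which open the nucleotide pocket of HSP70, moved apart from each other. Bag3, the partner of Hspb8, had 192, 393 and 302 CPM in TRAP_Chat, against 102, 95.9 and 61.7 CPM in PreIP_Chat. Its Snap25 values were 48.9, 43.04 and 119 CPM in TRAP_Snap25, against 102, 36.7 and 73.1 CPM in PreIP_Snap25. TRAP_Chat lay above every other library, and the groups of the Snap25 line overlapped. Bag3 rose 3.41-fold in the Chat line (log2 fold change 1.77 ± 0.41, edgeR adjusted p = 0.00530) and had a log2 fold change of -0.01 ± 0.40 in the Snap25 line (edgeR adjusted p = 0.993). Bag1, which links HSP70 to the proteasome, rose in both lines, with 612, 496 and 596 CPM in TRAP_Chat, against 175, 133 and 203 CPM in PreIP_Chat (log2 fold change 1.74 ± 0.27, edgeR adjusted p = 3.40e-04). Bag1 also had 399, 511 and 238 CPM in TRAP_Snap25, against 177, 195 and 167 CPM in PreIP_Snap25 (log2 fold change 1.09 ± 0.27, edgeR adjusted p = 0.00858), a call lost without TRAP_Snap25 replicate 2 (edgeR adjusted p = 0.0513). Bag2, an inhibitor of the ubiquitin ligase CHIP, rose in the Snap25 line, with 16.4, 28.9 and 29.3 CPM in TRAP_Snap25, against 10.1, 10.6 and 13.8 CPM in PreIP_Snap25 (log2 fold change 1.11 ± 0.34, edgeR adjusted p = 0.0257). Bag5, which binds HSP70 and the ligase parkin, rose there too, with 83.5, 102 and 114 CPM in TRAP_Snap25, against 55.1, 57.4 and 66.6 CPM in PreIP_Snap25 (log2 fold change 0.74 ± 0.24, edgeR adjusted p = 0.0347). The Bag2 call was lost without TRAP_Snap25 replicate 2 or 3 or PreIP_Snap25 replicate 1 or 2 (edgeR adjusted p from 0.0580 to 0.102). The Bag5 call was lost without TRAP_Snap25 replicate 2 or 3 or PreIP_Snap25 replicate 1 or 2 (edgeR adjusted p from 0.0753 to 0.123) and with no filter on low counts (0.0659) and with only the groups compared in the fit (0.0651). In the Chat line the log2 fold changes of Bag2 and Bag5 were 0.50 and 0.08 and did not pass. Bag4 and Bag6 passed no test, and Bag6, which guards tail-anchored membrane proteins, lay lower in all TRAP_Chat than in all PreIP_Chat libraries (log2 fold change -0.69 ± 0.34, edgeR adjusted p = 0.150).

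Of the 8 cytosolic HSP70 genes, 2 rose and 1 fell in the Chat line, where 12.6% of all tested genes rose and 14.3% fell. Hspa12a, a distant relative of HSP70 with high expression in brain, had 347, 426 and 459 CPM in TRAP_Chat, against 204, 192 and 215 CPM in PreIP_Chat, groups that did not overlap (log2 fold change 1.01 ± 0.23, edgeR adjusted p = 0.00398). It had 319.7, 270.3 and 207 CPM in TRAP_Snap25, against 225, 229.9 and 176 CPM in PreIP_Snap25, which overlapped (log2 fold change 0.34 ± 0.22, edgeR adjusted p = 0.300). Hspa12b, its close relative, known from endothelial cells, had 33.7, 33.7 and 36.6 CPM in TRAP_Chat, against 20.2, 9.69 and 7.78 CPM in PreIP_Chat (log2 fold change 1.47 ± 0.34, edgeR adjusted p = 0.00503). It had 14.5, 17.6 and 21.3 CPM in TRAP_Snap25, against 13.1, 8.22 and 10.04 CPM in PreIP_Snap25, without passing the test (log2 fold change 0.76 ± 0.34, edgeR adjusted p = 0.118). The 5 vessel markers summed to 5.36 to 16.3 CPM in TRAP_Chat and 29.04 to 60.2 CPM in PreIP_Chat, and 1 of the 5 passed the test as lower. They summed to 4.58 to 8.74 CPM in TRAP_Snap25 and 22.1 to 39.6 CPM in PreIP_Snap25, and 2 passed as lower. In TRAP_Chat against TRAP_Snap25, 1 of the 5 vessel markers passed as higher and 0 as lower. Their part in the values of Hspa12b was not tested.

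Hspa8, the constitutive cytosolic HSC70, had 236, 381 and 249 CPM in TRAP_Chat, against 232, 259.5 and 241 CPM in PreIP_Chat. Levels of 300.5, 274 and 401 CPM in TRAP_Snap25 stood against 233, 173 and 284 CPM in PreIP_Snap25. The groups overlapped in both lines, and neither change passed (log2 fold changes 0.24 ± 0.25 in the Chat line, edgeR adjusted p = 0.516, and 0.50 ± 0.25 in the Snap25 line, edgeR adjusted p = 0.170). Pseudogenes share 74.8% of its 50-base stretches, so its level is uncertain. The heat-inducible pair Hspa1a and Hspa1b, which share most of their sequence with each other, were low everywhere. Hspa1a ranged over 0.670 to 6.39 CPM in the 12 libraries and Hspa1b over 0.0558 to 1.43 CPM, and no comparison of them passed. Hspa2, best known from male germ cells, went the other way, with 7.11, 6.27 and 12.1 CPM in TRAP_Chat, against 24.6, 23.8 and 13.4 CPM in PreIP_Chat (log2 fold change -1.28 ± 0.43, edgeR adjusted p = 0.0358). It had 3.53, 2.18 and 8.14 CPM in TRAP_Snap25, against 21.1, 15.4 and 21.8 CPM in PreIP_Snap25 and fell there too (log2 fold change -2.10 ± 0.45, edgeR adjusted p = 0.00394). The falls did not pass a test of their difference between the lines (difference 0.82 ± 0.61, edgeR adjusted p = 0.687). The Chat call was lost without TRAP_Chat replicate 1 or 2 or PreIP_Chat replicate 1 or 2 (edgeR adjusted p from 0.0938 to 0.129), while the Snap25 call was kept in every alternative tried. Oligodendrocyte and astrocyte markers were lower in these pulldowns too, as given above, and their part in the fall of Hspa2 was not tested. Hspa14 and Hspa1l passed no test.

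The HSP110 genes, whose products release ADP from HSP70, passed no test in either pulldown. Hsph1 had 386, 372 and 439 CPM in TRAP_Chat, against 250.4, 253 and 313 CPM in PreIP_Chat, which did not overlap but missed the threshold (log2 fold change 0.55 ± 0.24, edgeR adjusted p = 0.0986), and passed it with only the groups compared in the fit (adjusted p = 0.0385). Hspa4l had 137, 164 and 141 CPM in TRAP_Chat, against 175, 232 and 212 CPM in PreIP_Chat, lower in every TRAP_Chat library (log2 fold change -0.49 ± 0.23, edgeR adjusted p = 0.125). Hsph1 and Hspa4l had log2 fold changes of 0.19 ± 0.24 and -0.14 ± 0.23 in the Snap25 line. Hspa4 had a log2 fold change of 0.20 ± 0.22 in the Chat line and 0.13 ± 0.22 in the Snap25 line.

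Among the HSP90 genes Hsp90ab1, the constitutive form, was the most abundant chaperone RNA, at 1130.05 to 1592 CPM in the pulldowns and 1116 to 1541 CPM in the inputs. Its log2 fold change was 0.25 ± 0.23 in the Chat line (edgeR adjusted p = 0.434) and 0.04 ± 0.23 in the Snap25 line (edgeR adjusted p = 0.933). Hsp90aa1, the stress-inducible form, had 142, 204 and 163 CPM in TRAP_Chat, against 65.3, 82.3 and 73.1 CPM in PreIP_Chat and rose 2.31-fold (log2 fold change 1.21 ± 0.34, edgeR adjusted p = 0.0152). This call was lost without PreIP_Chat replicate 1 or 3 (edgeR adjusted p from 0.0537 to 0.0654). It had 180.4, 173 and 57.8 CPM in TRAP_Snap25, against 75.1, 62.9 and 106 CPM in PreIP_Snap25, with 1 low pulldown library. The change there did not pass (log2 fold change 0.75 ± 0.34, edgeR adjusted p = 0.121), but it did without TRAP_Snap25 replicate 3 (adjusted p = 0.00425). Per kb of exon the means were 507 CPM for Hsp90ab1 and 43.2 CPM for Hsp90aa1 in TRAP_Chat, and 425 and 18.7 CPM in PreIP_Chat. Other loci share 58.5% of the 50-base stretches of Hsp90aa1. Hsp90b1, or GRP94, the form of the ER, had 155, 95.4 and 119 CPM in TRAP_Chat, against 146, 142 and 162 CPM in PreIP_Chat, and 189.8, 171 and 88.4 CPM in TRAP_Snap25, against 186, 179.9 and 236 CPM in PreIP_Snap25, with no change that passed (log2 fold changes -0.28 ± 0.27 in the Chat line, edgeR adjusted p = 0.470, and -0.42 ± 0.27 in the Snap25 line, edgeR adjusted p = 0.288).

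Of the 5 genes for mitochondrial and ER chaperones, the HSP60 and HSP10 pair rose in the Chat line and the 3 HSP70 genes passed no test. Hspd1, which encodes HSP60, had 84.5, 103 and 103 CPM in TRAP_Chat, against 66.3, 54.4 and 70.7 CPM in PreIP_Chat (log2 fold change 0.61 ± 0.21, edgeR adjusted p = 0.0380). Hspe1, which encodes its lid HSP10, had 72.4, 51.7 and 57.6 CPM in TRAP_Chat, against 29.004, 26.02 and 29.1 CPM in PreIP_Chat (log2 fold change 1.11 ± 0.31, edgeR adjusted p = 0.0135). Neither pair of groups overlapped. The Hspd1 call was lost without TRAP_Chat replicate 2 or 3 or any PreIP_Chat library (edgeR adjusted p from 0.0663 to 0.178) and with no filter on low counts (0.137). The Hspe1 call was lost without PreIP_Chat replicate 2 (edgeR adjusted p = 0.0593). Hspd1 had 99.99, 96.1 and 90.01 CPM in TRAP_Snap25, against 67.3, 65.1 and 78.6 CPM in PreIP_Snap25. Hspe1 had 60.3, 63.3 and 66.3 CPM in TRAP_Snap25, against 23.5, 28.7 and 62.6 CPM in PreIP_Snap25. Neither passed there, with log2 fold changes of 0.44 ± 0.21 for Hspd1 (edgeR adjusted p = 0.136) and 0.73 ± 0.30 for Hspe1 (edgeR adjusted p = 0.0965), but Hspe1 did without PreIP_Snap25 replicate 3, its highest input (adjusted p = 0.00382), under limma voom (adjusted p = 0.0347) and with the replicate number as a block (adjusted p = 0.0326). Hspd1 and Hspe1 lie head to head with overlapping first exons and promoter windows, and pseudogenes share 44.8% of the 50-base stretches of each, so their levels are uncertain. The window of Hspe1 (chr1:55087898-55088197, plus strand) is shown because it carries 4 GAA units in an unbroken run of alternating direction, in capitals.
Hspe1: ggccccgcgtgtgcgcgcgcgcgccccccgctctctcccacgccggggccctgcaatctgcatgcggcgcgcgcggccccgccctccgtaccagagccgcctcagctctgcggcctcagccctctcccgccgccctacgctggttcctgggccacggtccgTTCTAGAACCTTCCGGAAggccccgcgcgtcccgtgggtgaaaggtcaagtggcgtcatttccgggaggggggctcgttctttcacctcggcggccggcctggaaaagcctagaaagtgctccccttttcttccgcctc
Runs of 3 such units (GAANNTTC followed at once by NNGAA, on either strand) were present in 5.63% of the chaperone genes with a window, which were Hspd1, Hspe1, Hsph1 and Dnajb6, and in 0.662% of all genes. The runs of Hspd1 and Hspe1 are the same bases read on opposite strands. This shared site counts for both genes here and in the share of GAANNTTC given above.

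The mitochondrial HSP70, Hspa9, had 115, 129.96 and 136 CPM in TRAP_Chat, against 112, 101 and 115 CPM in PreIP_Chat (log2 fold change 0.21 ± 0.20, edgeR adjusted p = 0.449). The Snap25 line gave a log2 fold change of 0.22 ± 0.20. The ER HSP70, Hspa5 or BiP, had 91.8, 59.6 and 106 CPM in TRAP_Chat, against 102, 91.4 and 105 CPM in PreIP_Chat (log2 fold change -0.21 ± 0.33, edgeR adjusted p = 0.672). It had 92.5, 68.3 and 144 CPM in TRAP_Snap25, against 107, 98.8 and 234 CPM in PreIP_Snap25, where the third input was the highest of all 12 libraries (log2 fold change -0.53 ± 0.34, edgeR adjusted p = 0.274). Neither these nor Hspa13, of the ER as well, passed a test in any comparison.

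Of the J proteins, which start the ATP cycle of HSP70, 1 of 4 class A, 1 of 10 tested class B and 5 of 25 tested class C genes rose in the Chat line, and 1 of class C fell. Over all tested genes 12.6% rose and 14.3% fell there. In the Snap25 line 0 of class A, 1 of class B and 7 of class C rose, and 1 of class C fell, where 9.69% of all genes rose and 12.7% fell. In class A Dnaja4 rose, with 14.96, 29.5 and 15.6 CPM in TRAP_Chat, against 7.63, 10.1 and 8.36 CPM in PreIP_Chat (log2 fold change 1.20 ± 0.39, edgeR adjusted p = 0.0324). Part of its exon sequence overlaps Wdr61 on the other strand, so its reads are uncertain, and the call was lost without TRAP_Chat replicate 2 or any PreIP_Chat library (edgeR adjusted p from 0.0664 to 0.141). Dnaja1 and Dnaja2, the main cytosolic class A partners of HSC70, had log2 fold changes of 0.66 ± 0.30 and 0.25 ± 0.22 in the Chat line and 0.29 ± 0.30 and 0.34 ± 0.22 in the Snap25 line, none past the threshold. Dnaja1 had 70.3, 55.6 and 104 CPM in TRAP_Chat, against 42.9, 47.4 and 55.6 CPM in PreIP_Chat, and Dnaja2 had 128, 103 and 117 CPM in TRAP_Chat, against 91.4, 87.7 and 114 CPM in PreIP_Chat.

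In class B 1 gene passed in each line, and 0 of the 10 tested genes passed a test of the difference between the lines. Dnajb4, a close relative of Dnajb1, had 76.6, 53.6 and 107 CPM in TRAP_Chat, against 27.3, 32.9 and 39.2 CPM in PreIP_Chat (log2 fold change 1.25 ± 0.34, edgeR adjusted p = 0.0119), a call lost without TRAP_Chat replicate 3 or PreIP_Chat replicate 1 (edgeR adjusted p from 0.0603 to 0.0641). In the Snap25 line Dnajb4 had 88.8, 65.2 and 32.2 CPM in TRAP_Snap25, against 35.8, 44.7 and 56.2 CPM in PreIP_Snap25, which overlapped and did not pass. Dnajb1, or HSP40, the main heat-inducible J protein, had 222, 288 and 516 CPM in TRAP_Snap25, against 158, 133 and 237 CPM in PreIP_Snap25 (log2 fold change 0.96 ± 0.31, edgeR adjusted p = 0.0361). Its groups overlapped, and the call was lost without TRAP_Snap25 replicate 3 or PreIP_Snap25 replicate 1 or 2 (edgeR adjusted p from 0.125 to 0.173) and with only the groups compared in the fit (0.0802). In the Chat line Dnajb1 had 257, 161 and 195 CPM in TRAP_Chat, against 178, 153 and 127 CPM in PreIP_Chat (log2 fold change 0.42 ± 0.31, edgeR adjusted p = 0.337). Dnajb2, the neuronal J protein whose human gene is mutated in motor neuropathy, had 157, 111 and 128 CPM in TRAP_Chat, against 122, 115 and 121 CPM in PreIP_Chat (log2 fold change 0.15 ± 0.22, edgeR adjusted p = 0.656). It had 74.2, 107 and 107 CPM in TRAP_Snap25, against 144, 121 and 127 CPM in PreIP_Snap25, lower in each pulldown library but not past the threshold (log2 fold change -0.44 ± 0.22, edgeR adjusted p = 0.157). Dnajb6, which blocks the clumping of polyglutamine proteins, was counted at 6.12 to 17.2 CPM over the 12 libraries, and passed no test. Other loci share 42.8% of the 50-base stretches of its longest coding transcript, so its level is uncertain.

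Class C, the J proteins with special tasks, held the largest rise of the Snap25 line, that of Dnajc15. Dnajc15, a J protein of the mitochondrial inner membrane, had 138, 116 and 106 CPM in TRAP_Chat, against 33.3, 31.1 and 39.04 CPM in PreIP_Chat. The Snap25 libraries gave 145, 214 and 97.7 CPM in TRAP_Snap25, against 33.9, 39.6 and 67.98 CPM in PreIP_Snap25. Neither pair of groups overlapped, and the rise was 3.48-fold in the Chat line (log2 fold change 1.80 ± 0.31, edgeR adjusted p = 6.22e-04) and 3.23-fold in the Snap25 line (log2 fold change 1.69 ± 0.30, edgeR adjusted p = 0.00138). Dnajc12, which binds HSC70 and the aromatic amino acid hydroxylases, had 6.86, 25.1 and 23.8 CPM in TRAP_Chat, against 5.13, 7.09 and 8.52 CPM in PreIP_Chat, with 1 low pulldown library inside the range of the inputs (log2 fold change 1.43 ± 0.46, edgeR adjusted p = 0.0305). It had 24.7, 34.8 and 12.001 CPM in TRAP_Snap25, against 6.38, 10.7 and 9.38 CPM in PreIP_Snap25 (log2 fold change 1.44 ± 0.46, edgeR adjusted p = 0.0339). The Chat call of Dnajc12 was lost without TRAP_Chat replicate 2 or 3 or any PreIP_Chat library (edgeR adjusted p from 0.0561 to 0.120) and under limma voom (0.0710). The Snap25 call was lost without TRAP_Snap25 replicate 1 or 2 or any PreIP_Snap25 library (edgeR adjusted p from 0.0689 to 0.150). Dnajc30, a mitochondrial J protein, had 28.9, 22.3 and 23.6 CPM in TRAP_Chat, against 15.02, 10.2 and 11.8 CPM in PreIP_Chat (log2 fold change 1.01 ± 0.30, edgeR adjusted p = 0.0189), a call lost without TRAP_Chat replicate 1 or PreIP_Chat replicate 2 or 3 (edgeR adjusted p from 0.0595 to 0.0940). It had 22.2, 39.7 and 26.5 CPM in TRAP_Snap25, against 12.5, 8.74 and 13.8 CPM in PreIP_Snap25 (log2 fold change 1.34 ± 0.30, edgeR adjusted p = 0.00530). Its exons overlap Bud23 on the other strand, so its reads are uncertain.

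Smaller rises were found for Dnajc10, an ER reductase, and Dnajc8, a splicing factor. The log2 fold changes were 0.74 and 0.77 for Dnajc10 in the Chat and Snap25 lines and 0.71 and 0.82 for Dnajc8. Dnajc8 had 101, 89.1 and 87.3 CPM in TRAP_Chat, against 60.6, 52.4 and 56.1 CPM in PreIP_Chat. In the Chat line the Dnajc10 call was lost without any TRAP_Chat library or any PreIP_Chat library (edgeR adjusted p from 0.0501 to 0.134) and with no filter on low counts (0.0668), and the Dnajc8 call without TRAP_Chat replicate 1 or 3 or any PreIP_Chat library (edgeR adjusted p from 0.0558 to 0.125) and with no filter on low counts (0.0656). In the Snap25 line the Dnajc10 call was lost without TRAP_Snap25 replicate 1 or 2 or any PreIP_Snap25 library (edgeR adjusted p from 0.0730 to 0.168) and with no filter on low counts (0.0628) and with only the groups compared in the fit (0.104) and with the replicate number as a block (0.0599), and the Dnajc8 call without TRAP_Snap25 replicate 1 or 2 or any PreIP_Snap25 library (edgeR adjusted p from 0.0525 to 0.107) and with only the groups compared in the fit (0.0671). Dnajc5, the cysteine string protein of synaptic vesicles, rose in the Snap25 line, with 492, 526 and 465 CPM in TRAP_Snap25, against 305, 300.5 and 298 CPM in PreIP_Snap25 (log2 fold change 0.71 ± 0.21, edgeR adjusted p = 0.0222). In the Chat line it had 324, 414 and 486 CPM in TRAP_Chat, against 317, 339 and 338 CPM in PreIP_Chat, which overlapped (log2 fold change 0.30 ± 0.21, edgeR adjusted p = 0.304). Dnajc9, a histone chaperone, rose in the Snap25 line as well (log2 fold change 0.73 ± 0.25, edgeR adjusted p = 0.0473). The Dnajc5 call was lost without TRAP_Snap25 replicate 2 or any PreIP_Snap25 library (edgeR adjusted p from 0.0529 to 0.0714) and with no filter on low counts (0.0695) and with only the groups compared in the fit (0.0667). The Dnajc9 call was lost without TRAP_Snap25 replicate 1 or 2 or PreIP_Snap25 replicate 1 or 2 (edgeR adjusted p from 0.0841 to 0.201) and with no filter on low counts (0.120) and with only the groups compared in the fit (0.104) and with the replicate number as a block (0.0564). Dnajc6, auxilin, the neuronal J protein that strips clathrin from vesicles with HSC70, had 166, 261 and 162 CPM in TRAP_Chat, against 175, 208 and 197 CPM in PreIP_Chat and 249, 208 and 208 CPM in TRAP_Snap25, against 181, 147 and 174 CPM in PreIP_Snap25, without a change that passed (log2 fold changes 0.02 ± 0.23 in the Chat line, edgeR adjusted p = 0.952, and 0.40 ± 0.23 in the Snap25 line, edgeR adjusted p = 0.217).

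Dnajc1, a J protein of the ER membrane, had the largest fall of the genes at 5 CPM or more. It had 2.35, 0.227 and 2.34 CPM in TRAP_Chat, against 15.5, 12.96 and 11.5 CPM in PreIP_Chat. Dnajc1 had 4.33, 2.07 and 2.14 CPM in TRAP_Snap25, against 14.02, 16.4 and 12.6 CPM in PreIP_Snap25. All 6 pulldown libraries lay under all 6 inputs (log2 fold changes -2.99 ± 0.56 in the Chat line, edgeR adjusted p = 0.00127, and -2.33 ± 0.55 in the Snap25 line, edgeR adjusted p = 0.00668), and the falls were kept in every alternative tried. The lowest value, in TRAP_Chat replicate 2, rests on 3 counts. Exons of Mllt10 overlap part of Dnajc1 on the other strand. Oligodendrocyte, astrocyte and microglial markers were lower in the same libraries, as given above, and their part in the fall was not tested.

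**Figure D3:**
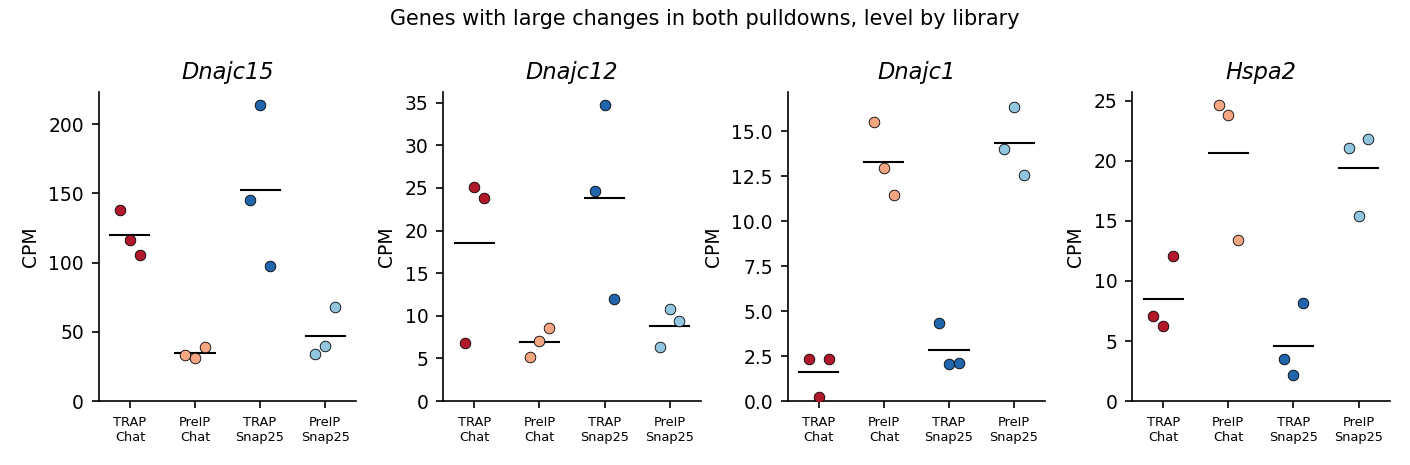
Level in CPM of Dnajc15, Dnajc12, Dnajc1 and Hspa2 in each library, on linear axes from 0; points are libraries and horizontal lines are group means of 3. Pulldowns of both lines lie above their inputs for Dnajc15, and below them for Dnajc1 and Hspa2, while 1 TRAP_Chat library of Dnajc12, at 6.86 CPM, lies among the inputs.

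The subunits of TRiC, the ring that folds actin and tubulin, had small positive changes of which 1 passed the test. All 7 tested subunit genes had positive log2 fold changes in both lines, between 0.08 and 0.74 in the Chat line and between 0.19 and 0.54 in the Snap25 line. Over all genes 47.5% were positive in the Chat line and 49.8% in the Snap25 line. Cct3 rose in the Chat line, with 69.6, 89.6 and 64.9 CPM in TRAP_Chat, against 44.6, 41.9 and 48.03 CPM in PreIP_Chat (log2 fold change 0.74 ± 0.26, edgeR adjusted p = 0.0484), a call lost without any TRAP_Chat library or any PreIP_Chat library (edgeR adjusted p from 0.0587 to 0.152) and with no filter on low counts (0.0608). Cct3 did not pass in the Snap25 line (edgeR adjusted p = 0.244), but it did without PreIP_Snap25 replicate 3 (adjusted p = 0.0274). Tcp1, the first subunit, had 141, 138 and 141 CPM in TRAP_Chat, against 81.5, 93.4 and 119.6 CPM in PreIP_Chat (log2 fold change 0.51 ± 0.22, edgeR adjusted p = 0.0939). Cct2 had 157, 224 and 194 CPM in TRAP_Chat, against 129, 127 and 160.3 CPM in PreIP_Chat (log2 fold change 0.47 ± 0.23, edgeR adjusted p = 0.137). Tcp1 and Cct2 had log2 fold changes of 0.25 ± 0.22 and 0.33 ± 0.23 in the Snap25 line. The sixth subunit, Cct6a, carries another biotype in the table and so lies outside the 87 genes. It had 52.7, 66.9 and 79.2 CPM in TRAP_Chat, against 63.4, 59.2 and 81.8 CPM in PreIP_Chat, and its log2 fold changes were -0.04 ± 0.23 and -0.17 ± 0.23 in the Chat and Snap25 lines. Per kb of the merged exons of all annotated transcripts the subunit genes ranged from 11.7 CPM for Cct3 to 75.01 CPM for Cct2 in TRAP_Chat, and from 7.04 to 54.3 CPM for the same genes in PreIP_Chat.

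**Figure D4:**
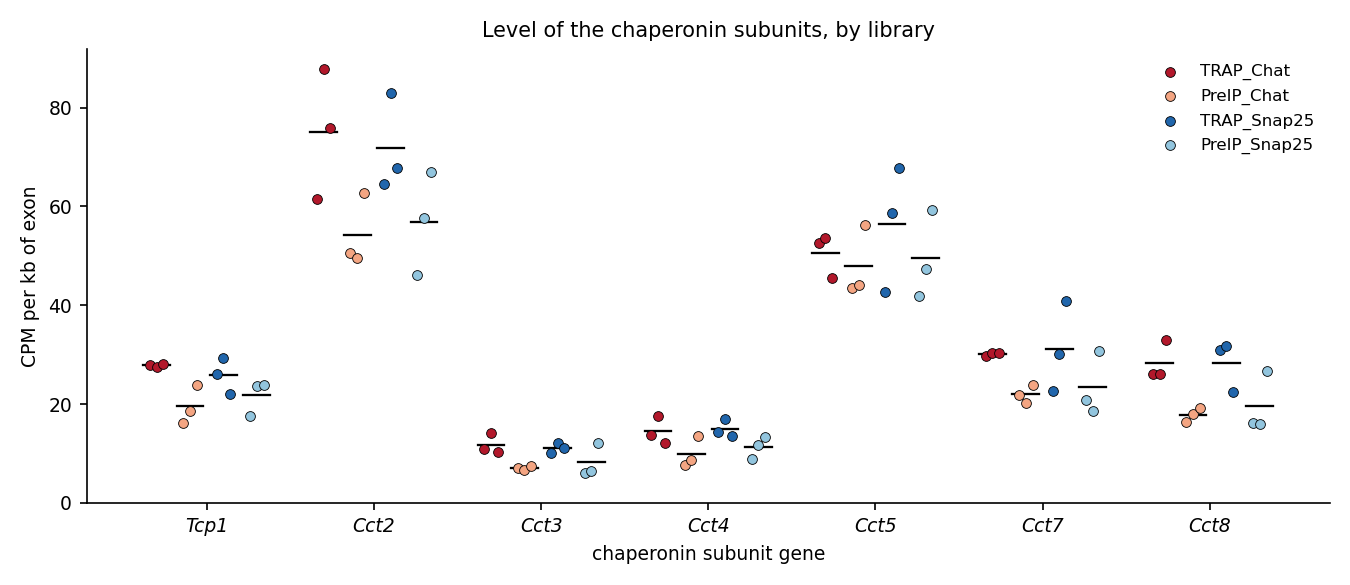
Level of the 7 tested chaperonin subunit genes in CPM per kb of merged exon, by library and group, on a linear axis from 0; horizontal lines are group means of 3. Cct2 and Cct5 stand highest and Cct3 and Cct4 lowest in all 4 groups, and each pulldown mean lies above its input mean.

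The pulldowns of the Chat and Snap25 lines were then set side by side. In TRAP_Chat against TRAP_Snap25 4 of the 77 genes were higher, where 3.97% of all genes were, and 1 was lower, where 2.77% of all were. The 4 were Hspb1 (log2 fold change 2.45 ± 0.28, edgeR adjusted p = 1.00e-04), Hspb8 (log2 fold change 2.15 ± 0.23, edgeR adjusted p = 8.51e-05), Hspb6 (log2 fold change 1.63 ± 0.26, edgeR adjusted p = 9.95e-04) and Bag3 (log2 fold change 2.07 ± 0.42, edgeR adjusted p = 0.00680). Every TRAP_Chat library exceeded every TRAP_Snap25 library for each of them, and their calls were kept in every alternative tried. Dnajc27, a J protein with a Rab-like GTPase domain, was lower, with 117, 84.9 and 139.7 CPM in TRAP_Chat, against 181, 245 and 188 CPM in TRAP_Snap25 (log2 fold change -0.85 ± 0.24, edgeR adjusted p = 0.0408). That call was lost without TRAP_Chat replicate 1 or 2 or TRAP_Snap25 replicate 1 or 2 (edgeR adjusted p from 0.0518 to 0.168) and with only the groups compared in the fit (0.128) and with the replicate number as a block (0.0609). Dnajc27 was higher in TRAP_Snap25 than in PreIP_Snap25 by 0.66 ± 0.24 on the log2 scale without passing (edgeR adjusted p = 0.0543), and passed with the replicate number as a block (adjusted p = 0.0311). Bag5 did not pass in TRAP_Chat against TRAP_Snap25 (log2 fold change -0.77 ± 0.24, edgeR adjusted p = 0.0623), but it did as lower with the replicate number as a block (adjusted p = 0.0435). Between the pulldowns the replicate numbers tie no libraries together. Neither the loss of Dnajc27 nor the gain of Bag5 under the block can therefore be read as an effect of pairing. Without TRAP_Chat replicate 3 or TRAP_Snap25 replicate 3 the number of lower genes was 2. The median log2 fold change was -0.06 over the 77 genes and 0.0077 over all genes. Cryab was higher in TRAP_Chat as well, at the levels given above (log2 fold change 1.80 ± 0.34, edgeR adjusted p = 0.00441), where 0 of the oligodendrocyte markers and 1 of the 8 astrocyte markers, Sox9, passed as higher too. Sox9 averaged 12.3 CPM in TRAP_Chat and 2.76 CPM in TRAP_Snap25, and the part of these cells in the level of Cryab was not tested.

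The change from input to pulldown was also compared between the lines in an interaction term. Hspb1 rose more in the Chat line, by 2.48 ± 0.39 on the log2 scale (edgeR adjusted p = 0.00689), and so did Hspb8, by 1.95 ± 0.32 (edgeR adjusted p = 0.00802). Of the 77 genes these 2 were higher at the threshold, where 0.604% of all genes were, and 0 were lower, where 0.44% of all were; at an unadjusted p under 0.05 edgeR put 6 higher (6.09% of all genes) and 1 lower (5.44% of all genes), and DESeq2 and limma voom called 0 lower. For Bag3 the difference was 1.78 ± 0.58 (edgeR adjusted p = 0.183), and it passed without TRAP_Snap25 replicate 3, its highest library of that group (adjusted p = 0.0233), and with no filter on low counts (adjusted p = 9.61e-04). For Hspb6 it was 1.28 ± 0.36 (edgeR adjusted p = 0.101), and it passed under DESeq2 (adjusted p = 0.0259) and with no filter (adjusted p = 0.0499). Chat itself differed by 2.21 ± 0.41 (edgeR adjusted p = 0.0130). Bag1, Dnajc15, Dnajc1 and the chaperonin subunits had differences between -0.66 and 0.64, none past the threshold.

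**Figure D5:**
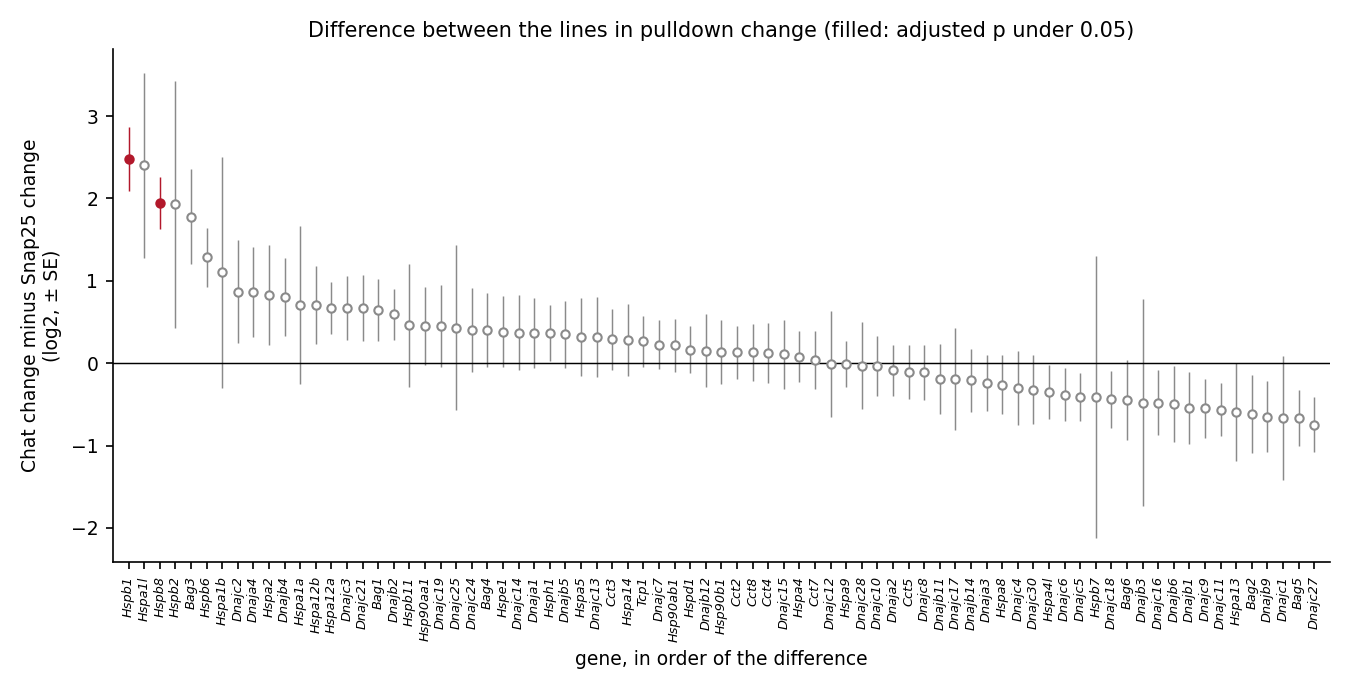
Pulldown change in the Chat line minus that in the Snap25 line (log2, ± SE, y axis) for the 77 tested genes, in order of the difference. Filled red points, Hspb1 at 2.48 and Hspb8 at 1.95, passed an edgeR adjusted p of 0.05; Hspa1l and Hspb2, next to them, have long error bars at low counts.

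Between the inputs, PreIP_Chat and PreIP_Snap25, 0 of the 77 genes were called by edgeR's test, where 0% of all genes were, and DESeq2 and limma voom called 0 as well. At an unadjusted p under 0.05 edgeR put 0 higher (0.258% of all genes) and 1 lower (0.578% of all genes) in PreIP_Chat, which was Dnajc21, a factor of ribosome assembly, named after its values were seen, with 57.3, 38.7 and 55.02 CPM in PreIP_Chat, against 78.8, 113 and 67.3 CPM in PreIP_Snap25. The median log2 fold change of the 77 genes was -0.11, against 0.0011 over all genes, and 19 of the 77 were positive, which is 24.7%, where 50.1% of all genes were. Hspb1, Hspb6 and Hspb8 differed between the inputs by -0.04 ± 0.28, 0.34 ± 0.25 and 0.21 ± 0.22 on the log2 scale.

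The 10 genes too low to test were Hspb3, Hspb9, Cct6b, Cct8l1, Dnajb7, Dnajb8, Dnajb13, Dnajc5b, Dnajc5g and Dnajc22. Dnajb8 and Dnajc5g had no counts in any library, and the highest value of the others was 1.32 CPM, for Hspb9. Of the 77 tested genes 50 passed in none of the 5 comparisons. In the Chat line their log2 fold changes lay between -0.69 (Bag6) and 1.18 (Hspb11), and in the Snap25 line between -1.40 (Hspa1l) and 0.85 (Dnajb3). The lowest edgeR adjusted p among them was 0.0544 in the Chat line, for the chaperonin subunit Cct8, and 0.0525 in the Snap25 line, for Dnaja3, a mitochondrial J protein.

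Genes that work with these chaperones were taken from lists chosen with earlier results known. Of 20 HSP70 and HSP90 cochaperones and heat shock factors 7 rose and 0 fell in the Chat line, and 4 rose and 0 fell in the Snap25 line, with median log2 fold changes of 0.66 and 0.45, beside the medians of -0.06 and -0.0042 over all genes. Over all tested genes 12.6% rose and 14.3% fell in the Chat line, and 9.69% rose and 12.7% fell in the Snap25 line. Cacybp, which binds HSP90 and a ubiquitin ligase, had 55.1, 67.1 and 64.4 CPM in TRAP_Chat, against 18.3, 27.2 and 22.6 CPM in PreIP_Chat (log2 fold change 1.45 ± 0.31, edgeR adjusted p = 0.00306). Stip1, the bridge from HSP70 to HSP90, changed by 0.75 ± 0.23 and 0.94 ± 0.23, and Ptges3, the HSP90 cochaperone p23, by 1.05 ± 0.25 in the Chat line. Fkbp5, a cochaperone of steroid receptors, was the 1 gene of this list that was higher in TRAP_Chat than in TRAP_Snap25 (log2 fold change 1.07 ± 0.31, edgeR adjusted p = 0.0490). Hsf2, a heat shock factor, had 35.3, 30.1 and 20.8 CPM in TRAP_Chat, against 18.1, 11.96 and 12.4 CPM in PreIP_Chat (log2 fold change 1.02 ± 0.29, edgeR adjusted p = 0.0171), and Hsf1, the main stress factor, had 81.3, 63.4 and 94.4 CPM in TRAP_Chat, against 60.5, 51.1 and 44.9 CPM in PreIP_Chat without passing (log2 fold change 0.61 ± 0.33, edgeR adjusted p = 0.186).

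Of 14 prefoldin subunits and chaperonin helpers 4 rose and 0 fell in each line, with medians of 0.61 and 0.32. Beside the counts of this and the following lists, 12.6% of all tested genes rose and 14.3% fell in the Chat line. In the Snap25 line 9.69% rose and 12.7% fell. Tbca, a tubulin-folding cofactor that takes up beta-tubulin, had 188, 167 and 157 CPM in TRAP_Chat, against 53.2, 38.98 and 45.7 CPM in PreIP_Chat (log2 fold change 1.89 ± 0.26, edgeR adjusted p = 1.16e-04). It had 166, 187 and 128 CPM in TRAP_Snap25, against 43.04, 60.99 and 80.6 CPM in PreIP_Snap25 (log2 fold change 1.38 ± 0.25, edgeR adjusted p = 0.00152). Pfdn1, a prefoldin subunit that hands actin and tubulin to TRiC, changed by 1.56 ± 0.25 and 1.20 ± 0.24, and Tbcc, another tubulin cofactor, by 1.62 ± 0.36 and 1.43 ± 0.36 on the log2 scale. Of 10 mitochondrial chaperones and proteases 2 rose in the Chat line and 3 in the Snap25 line, and 0 fell, with medians of 0.61 and 0.49. Hscb, a J protein of iron-sulfur cluster assembly that carries no Dnaj name, rose by 1.26 ± 0.27 and 0.81 ± 0.27. Of 16 ER folding genes 0 rose and 1 fell in the Chat line and 1 rose and 0 fell in the Snap25 line, with medians of 0.07 and 0.26. They were P4hb, a protein disulfide isomerase (log2 fold change -0.80 ± 0.27, edgeR adjusted p = 0.0357), and Atf4, a transcription factor of the stress response (log2 fold change 0.82 ± 0.25, edgeR adjusted p = 0.0283). Manf, a secreted ER protein, was lower in TRAP_Chat than in TRAP_Snap25 (log2 fold change -0.96 ± 0.27, edgeR adjusted p = 0.0407).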

How the data were processed

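RNA-seq of spinal cord ribosome pulldowns and their inputs was analysed from 1 table of raw read counts per Ensembl gene, which the authors made with HTSeq after alignment by STAR, as listed in the submitters' processing notes. Which build, gene models, strand option and software releases they used is not given in the sources used here. Of 41736 lines, 824 were exact repeats and were dropped. Genes were filtered with filterByExpr by group, scaled by TMM and tested with edgeR 4.0.16 (R 4.3.3) in a quasi-likelihood fit of all 12 libraries with 1 mean per group, and p-values were adjusted by Benjamini-Hochberg over the 15905 genes tested. SE is the log2 fold change over the root of F. Groups came from the labels. Pulldown and input of the same line and replicate number share a suffix in the table's column names, whose meaning is not given in the sources used here and which is taken to pair them. The replicate numbers do not pair libraries across the lines. Chat replicate 2 and Snap25 replicate 1 carry the same suffix, a link of unknown meaning that no fit used. Deviations of pulldown and input of the same number from the group means correlated at 0.06, 0.10 and 0.13 in the Chat line and -0.04, 0.17 and 0.147 in the Snap25 line. The highest correlations with an input of another number were -0.02, -0.05 and -0.02 in the Chat line. In the Snap25 line they were 0.167, -0.04 and 0.166, above the same-number values for replicates 1 and 3. Blocked values stand beside the results whose call they change. Alternatives were DESeq2 1.42.0, limma 3.58.1 voom, RLE scaling, other filters, smaller fits, a replicate block, library sizes without the mitochondrial genome and each library left out. Exon lengths, overlaps and shared stretches came from GENCODE M21, which may differ from the annotation behind the counts. Scripts were tested on simulated data. The members and lists were chosen with earlier results of these data known. Genes named by library were a fixed set by role plus, per comparison, up to 3 rises and 3 falls past an adjusted p of 0.05 at 5 CPM or more with no overlap; the other called genes were named after their values were seen.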

Additional observations from a re-analysis of the deposited data

Results flagged for a closer look

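The rise of Hspb1 from input to pulldown differed between the lines by 2.48 on the log2 scale, larger in the Chat line (3.74) than in the Snap25 line (1.25), in the interaction test given in the report. That of Hspb8 differed by 1.95, with 2.69 in the Chat line and 0.75 in the Snap25 line. The 3 TRAP_Chat libraries showed the higher level in each case.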

How the results depend on the processing

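Of 44 calls of chaperone genes, 21 held under each alternative run and 23 were lost under at least 1, and 0 changed direction. Leaving out 1 library gave 10 to 14 rises and 1 to 2 falls in the Chat line, where 18 and 2 were called, 5 to 13 rises in the Snap25 line, where 14 were called, and 0 to 2 lower genes between the pulldowns, where 1 was called. Over all genes, leaving out 1 library gave 1191 to 1767 rises in the Chat line, where 2005 were called, and 675 to 1688 in the Snap25 line, where 1541 were called. The Snap25 rises of chaperone genes came to 9 with no filter on low counts and to 7 with only the groups compared in the fit. Over all genes these were 1390 and 890. Lower genes between the pulldowns numbered 3 under DESeq2 and 0 with only the groups compared, and genes with a larger rise in the Chat line numbered 4 with no filter. The causes were not tested, other than that leaving out a library or a group leaves fewer libraries to estimate the spread.

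With the replicate number as a block the rises numbered 18 in the Chat line and 15 in the Snap25 line, the falls 2 and 3, the genes between the pulldowns 4 higher and 1 lower, and those between the lines 2. The lower gene between the pulldowns was then Bag5 in place of Dnajc27, although the numbers tie no libraries across the lines. In the Snap25 line Dnajc9 and Dnajc10 were lost and Hspe1, Dnajc27 and Dnaja3 gained. Dnaja3, a J protein of the mitochondrial matrix, had a log2 fold change of 0.68 there (edgeR adjusted p = 0.0525, and 0.0460 with the block). The block changed no other call of a chaperone gene.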
